A study of Mus musculus with 6 samples.

Results

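The members described here are 9 genes for ion channels that set the membrane potential of smooth muscle and its calcium entry, chosen by gene symbol and read by 20 of the 34958 probe sets that carry a single gene symbol. They are Kcna5 (1 probe set), Kcnk3 (3), Kcnma1 (5), Kcnj8 (1), Abcc9 (3), Abcc8 (2), Trpc1 (2), Trpc6 (1) and Cacna1c (2). Their expression was read from homogenised whole lung of 6 FVB/N mice, on 1 Affymetrix mouse genome array per mouse, with 2 mice in each of 3 groups. R899X high RVSP mice were heterozygous for SM22-rtTA and for TetO7-BMPR2-R899X, and had clearly raised right ventricular systolic pressure (RVSP) at death. R899X normal RVSP mice had the same 2 transgenes and a pressure close to normal. Control mice had SM22-rtTA alone. All 3 groups, controls included, were fed doxycycline for 9 weeks from an age of 4 weeks, and death was at 13 weeks. The series describes all mice as female, although the label of control 1 gives no sex.

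R899X truncates the receptor BMPR2, through which bone morphogenetic proteins signal. The SM22 promoter drives the doxycycline-dependent activator rtTA mainly in smooth muscle, so the transgene acts in a minority of the cells of a whole lung, while the mice keep their own Bmpr2. The comparisons ask what the mutation does in lung with and without raised pressure.

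Potassium channels let potassium leave the muscle cell, which holds its membrane at a negative voltage and keeps voltage-gated calcium channels shut. When potassium efflux falls, the membrane depolarises, calcium enters and the vessel constricts. In human pulmonary artery smooth muscle the voltage-gated channel Kv1.5 (mouse gene Kcna5) and the background channel TASK-1 (Kcnk3) carry much of this current. Loss-of-function variants of KCNK3 are a known cause of heritable pulmonary arterial hypertension in humans. The part of these channels in the current of mouse muscle was not tested here. TRPC channels admit calcium after receptor activation or store depletion.

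RefSeq (build GRCm38.p6) places Kcna5, Kcnj8, Abcc9 and Cacna1c on chromosome 6, Trpc1 and Trpc6 on chromosome 9, Kcnk3 on chromosome 5, Abcc8 on chromosome 7 and Kcnma1 on chromosome 14. Kcnj8 and Abcc9, which encode the pore and the sulfonylurea receptor of 1 ATP-sensitive channel, are neighbours, with 16247 bases and no other whole gene between them. Kcnj11 and Abcc8, the corresponding pair for the channel with SUR1, lie 3570 bases apart. RefSeq promoter sequences of GRCm38.p6 were found for 7 members (not Kcnk3 or Abcc8), in 9 windows of 250 bases before an annotated start. The windows of the Kcnj8 and Abcc9 pair are shown because these neighbours contribute to a single channel and their readings are compared below. That of Trpc6 is shown because it was the single member window that holds a CArG box, the binding element of serum response factor in smooth muscle genes. Each is written 5′ to 3′ in lower case, with the CArG box in capitals.
Kcnj8 (chr6:142571615-142571864, minus strand): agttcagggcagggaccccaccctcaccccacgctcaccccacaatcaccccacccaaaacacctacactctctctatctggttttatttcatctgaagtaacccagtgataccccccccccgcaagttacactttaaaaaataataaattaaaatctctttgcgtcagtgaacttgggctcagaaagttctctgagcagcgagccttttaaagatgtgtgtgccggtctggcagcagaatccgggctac
Abcc9 (chr6:142702275-142702524, minus strand): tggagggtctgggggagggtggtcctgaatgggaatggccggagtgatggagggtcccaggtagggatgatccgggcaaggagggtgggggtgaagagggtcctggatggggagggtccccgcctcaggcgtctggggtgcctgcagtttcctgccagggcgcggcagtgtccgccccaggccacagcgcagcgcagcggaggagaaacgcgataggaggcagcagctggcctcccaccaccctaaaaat
Trpc6 (chr9:8543892-8544141, plus strand): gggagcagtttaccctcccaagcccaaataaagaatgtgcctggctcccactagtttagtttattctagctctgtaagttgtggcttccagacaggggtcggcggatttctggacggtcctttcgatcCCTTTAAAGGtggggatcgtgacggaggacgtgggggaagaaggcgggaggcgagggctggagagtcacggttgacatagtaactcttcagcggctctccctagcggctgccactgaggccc
The CArG box of Trpc6 begins 122 bases before the start. The motif was searched on both strands, where it reads as itself, and 482 of 32851 promoter windows of the same length (1.47%) hold it. The letters GGGCGG on either strand were found in 32.7% of all windows and TATAAA in 12.4%. The Abcc9 window holds GGGCGG, the Kcnj8 window holds neither, and the Trpc6 window holds neither. These matches describe letters and say nothing of binding.

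The deposited values are intensities on a linear scale. They were compared as log2(intensity + 16), which makes the differences of dim probe sets look smaller. The dimmest 40% (18015 probe sets, mean intensity under about 74.9) and 64 control probe sets were left out of the test. That left 27022, among them 12 of the 20 member probe sets, from 8 of the 9 genes. Kcna5 was left out, as were 2 probe sets of Kcnk3, 4 of Kcnma1 and 1 of Abcc8. Their differences are given without a test, or with the adjusted p of the fit that kept dim probe sets, which is then named. A value behind ± is limma's standard error of a log2 difference, and adjusted p-values are limma's with Benjamini-Hochberg adjustment over all probe sets tested. Intensities are given in the order of mouse 1 and mouse 2 of a group, which follows accession order only.

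Arrays had median intensities of 128 to 141. Control 1 and R899X normal RVSP 1 lay farthest from the other arrays, at mean distances of 0.496 and 0.492 (root mean square, log2), against at most 0.42 for the other 4. Their beta-actin 3′/5′ intensity ratios, which depend on RNA integrity and labelling, were 1.89 and 1.64, against 1.27 to 1.45. The same ratio for Gapdh did not set these 2 arrays apart, at 0.973 and 0.70, against 0.721 to 1.03. All 10 smooth muscle markers and all 8 pericyte markers were measured. Acta2, smooth muscle actin, lay between 6972 and 9730 on the 6 arrays and Pdgfrb, a pericyte receptor, between 4730 and 6995. The summed intensity of the smooth muscle markers was 31080 and 30146 in R899X high RVSP, 34194 and 29679 in R899X normal RVSP, and 29050 and 30641 in controls. By gene, 8 of the 10 read lower in R899X high than in normal RVSP, with a median log2 difference of -0.24. There 8 did not overlap in either direction, beside 32.2% of all probe sets tested. Against control, 8 read higher in R899X normal RVSP (median 0.24) and 7 lower in R899X high RVSP (median -0.03). Of these markers 0 passed the test described below. In whole lung, fewer cells of a type and less RNA per cell cannot be told apart.

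With limma, 0 of the 12 member probe sets passed the threshold of 0.05 in R899X high RVSP against control, where 0% of all 27022 probe sets passed. The same counts, 0 members and 0% of all, held for R899X normal RVSP against control, for R899X high RVSP against R899X normal RVSP and for all R899X against control. At an unadjusted limma p under 0.05, the members numbered 0, 0, 1 and 0 of 12 in these comparisons, while 5.65%, 4.34%, 2.62% and 5.92% of all probe sets did so. The member was the dimmer probe set of Trpc1 in R899X high RVSP against R899X normal RVSP. The smallest adjusted p of a member was 0.857 in R899X high RVSP against control and 0.834 in all R899X against control.

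The median log2 difference of the 12 was -0.04 in R899X high RVSP against control, -0.01 in both R899X normal RVSP against control and R899X high RVSP against R899X normal RVSP, and 0.04 in all R899X against control. Over all probe sets tested the median lay between 0.00 and 0.01 in size. In R899X high RVSP against control 5 members read higher and 7 lower, and the 95% interval of 8 of the 12 lay within 1 log2 unit of 0, which is 2-fold. The intervals of the other 4 reached as far as -1.12 and 1.28, so changes of up to about that size lie within them. In R899X normal RVSP against control 10 of the 12 intervals lay within 1 log2 unit, and in R899X high RVSP against R899X normal RVSP 9 did.

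**Figure D1:**
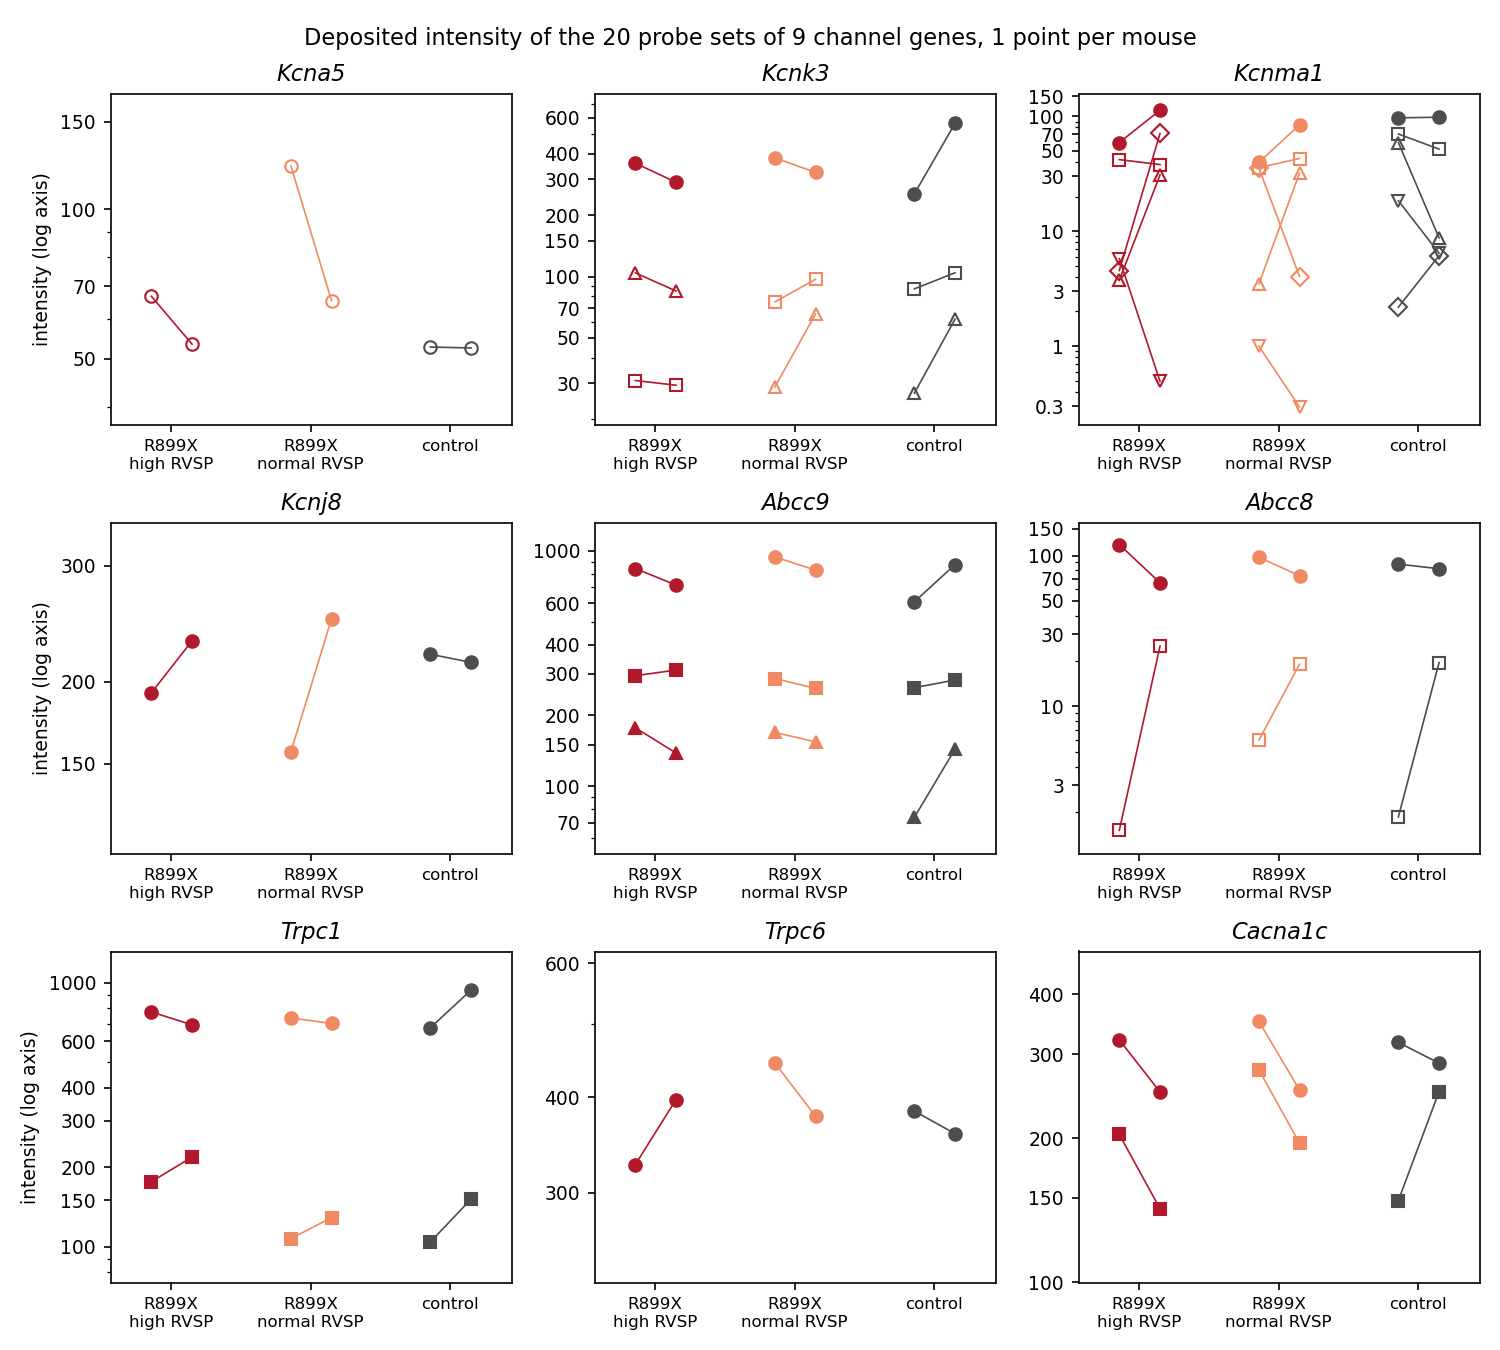
Intensity (log axis) of each member gene in each mouse, with R899X high RVSP, R899X normal RVSP and control from left to right. Each symbol is a probe set and lines join the 2 mice of a group. Filled symbols are the 12 probe sets tested and open symbols the 8 left out as dim. Most filled symbols overlap between the groups, while the 2 dim probe sets of Kcnk3 read lower and higher in R899X high RVSP than in the other groups.

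Kcnk3 encodes TASK-1, a background potassium channel that helps to set the resting potential. Its brightest probe set (1425341_at) read 359 and 290 in R899X high RVSP, 382 and 324 in R899X normal RVSP, and 254 and 563 in controls. The controls held both the lowest and the highest of the 6 values. The difference was -0.23 ± 0.34 for R899X high RVSP against control (adjusted p = 0.955) and -0.11 ± 0.34 for R899X normal RVSP against control (adjusted p = 0.995). Without control 2 these differences were 0.33 and 0.44, and without control 1 they were -0.78 and -0.66.

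The second Kcnk3 probe set (1426058_a_at) was too dim to be tested. It read 30.9 and 29.3 in R899X high RVSP, 75.1 and 96.9 in R899X normal RVSP, and 87.0 and 104 in controls. Both R899X high RVSP mice lay below the other 4 mice, by a log2 difference of -1.27 against control and -1.14 against R899X normal RVSP. In the limma fit that kept dim probe sets the unadjusted p-values were 0.0052 and 0.00936 and the adjusted ones 0.916 and 1, while 1.02% and 0.477% of all 45037 probe sets had an unadjusted p under 0.01 there. The 95% intervals ran from -2.04 to -0.50 and from -1.91 to -0.37. Leaving out any single array moved the difference from control between -1.38 and -1.16. It depended more on the pseudocount, being -0.76 with 64 and -1.63 with 1, and against R899X normal RVSP it was -0.67 and -1.47.

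The third Kcnk3 probe set (1425342_a_at) had the opposite sign. It read 104 and 84.9 in R899X high RVSP, 28.7 and 65.5 in R899X normal RVSP, and 26.8 and 61.9 in controls. Both R899X high RVSP mice lay above the other 4, by 0.93 against control and 0.87 against R899X normal RVSP, with adjusted limma p-values of 0.916 and 1 with dim probe sets kept. Single arrays left out moved these differences between 0.50 and 1.36 and between 0.43 and 1.30. The probe table gives the same design sequence for this probe set as for the brightest, which did not follow it. The 3 probe sets therefore give no common direction for Kcnk3 in R899X high RVSP. Among all 45037 probe sets that are not controls, 35.6% had R899X high RVSP and control mice that did not overlap, and 32.4% had R899X high and normal RVSP mice that did not overlap. Of the 20 member probe sets the counts were 7 (35%) and 4 (20%).

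**Figure D2:**
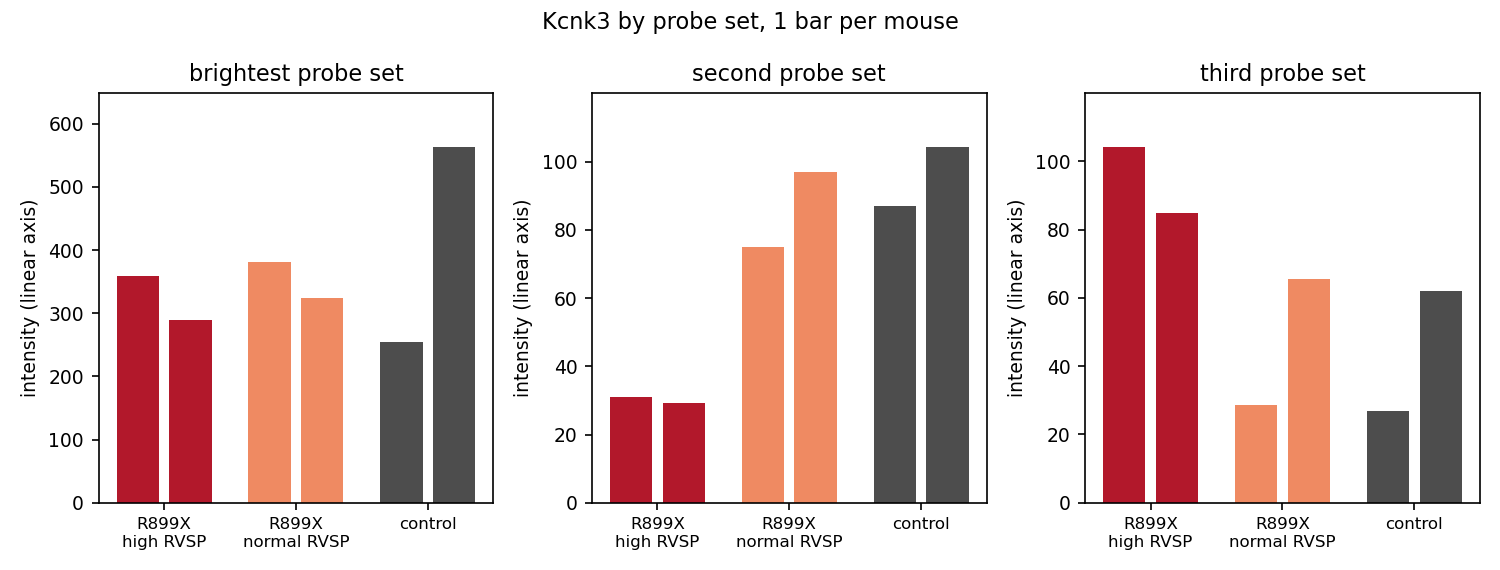
Intensity (linear axis from 0) of the 3 Kcnk3 probe sets, 1 bar per mouse, in R899X high RVSP, R899X normal RVSP and control. The brightest probe set spans 254 to 563 within the controls; the second is at 30.9 and 29.3 in R899X high RVSP and at 75.1 or more in the other mice, and the third is at 104 and 84.9 in R899X high RVSP and at 65.5 or less in the others.

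Kcna5 encodes the delayed rectifier Kv1.5, which repolarises pulmonary artery and atrial muscle. Its probe set (1417680_at) read 66.8 and 53.5 in R899X high RVSP, 122 and 65.4 in R899X normal RVSP, and 52.8 and 52.5 in controls. All 4 R899X mice lay above both controls, though R899X high RVSP 2 did so by under 1 intensity unit, and R899X normal RVSP 1 stood alone. Kcna5 was too dim for the test. With dim probe sets kept, its difference was 0.39 ± 0.33 for all R899X against control (limma, adjusted p = 0.909) and -0.48 ± 0.38 for R899X high RVSP against R899X normal RVSP (limma, adjusted p = 1). Without R899X normal RVSP 1 these differences were 0.20 and -0.10, and without R899X normal RVSP 2 they were 0.58 and -0.87. R899X normal RVSP 1, the mouse with the highest Kcna5, also had the highest mean deviation of cardiac muscle markers, at 0.46. The other mice did not keep this order. R899X high RVSP 2 had the lowest cardiac deviation, -0.842, and the controls had 0.203 and 0.155, yet both controls read lower for Kcna5. The part of these markers in the Kcna5 value was not tested.

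Kcnma1 encodes the pore of the large-conductance calcium-activated potassium channel, which opens on calcium sparks and opposes constriction. The 1 of its 5 probe sets that was tested (1425987_a_at) read 59.1 and 113 in R899X high RVSP, 39.7 and 84.1 in R899X normal RVSP, and 97.1 and 98.2 in controls. The R899X normal RVSP mice lay below both controls, and the R899X high RVSP mice lay on either side of them. The difference was -0.61 ± 0.40 for R899X normal RVSP against control (adjusted p = 0.987) and -0.21 ± 0.40 for R899X high RVSP against control (adjusted p = 0.963). The difference of R899X normal RVSP from control was -0.18 without R899X normal RVSP 1 and -1.03 without R899X normal RVSP 2.

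A dimmer Kcnma1 probe set (1428948_at) read 42.0 and 38.0 in R899X high RVSP, 35.7 and 42.9 in R899X normal RVSP, and 70.1 and 51.8 in controls. All 4 R899X mice lay below both controls, and the difference was -0.46 ± 0.30. Its adjusted p from limma was 0.890 with dim probe sets kept. The difference was -0.27 with a pseudocount of 64, and lay between -0.63 and -0.29 with single arrays left out. The probe set 1457018_at had the same order, at no more than 5.77 in R899X mice and at 18.4 and 6.43 in controls. The other 2 ranged from 3.46 to 59.1 and from 2.18 to 70.9, with mice of the same group far apart. In all R899X against control 4 of the 5 Kcnma1 probe sets read lower and 1 higher. Of the lower ones, 1457018_at was near the floor, and its difference was -2.41 with a pseudocount of 1 and -0.21 with 64. Another, 1440728_at, lay between -1.3 and 0.303 with single arrays left out. Taking all 20 member probe sets, 3 did not overlap between all R899X and control (15%): the probe set of Kcna5, and 1428948_at and 1457018_at of Kcnma1. Over all 45037 the share was 14.5%. In R899X normal RVSP against control 5 of the 20 did not overlap (25%), beside 30.4% of all.

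Kcnj8 encodes Kir6.1, the pore of the vascular ATP-sensitive potassium channel, which opens when ATP falls. It read 192 and 231 in R899X high RVSP, 157 and 249.2 in R899X normal RVSP, and 220 and 214 in controls. The R899X normal RVSP mice spanned the whole range. The difference was -0.04 ± 0.27 for R899X high RVSP against control (adjusted p = 0.993) and 0.08 ± 0.27 for R899X high RVSP against R899X normal RVSP (adjusted p = 1).

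Abcc9 encodes SUR2, the regulatory subunit that joins Kir6.1. Its brightest probe set (1435752_s_at, whose suffix marks probes that may match more than 1 gene) read 841 and 716 in R899X high RVSP, 943 and 828 in R899X normal RVSP, and 608 and 874 in controls. Control 1 was the lowest of the 6 and the groups overlapped. The difference was 0.27 ± 0.22 for R899X normal RVSP against control (adjusted p = 0.987) and 0.09 ± 0.22 for R899X high RVSP against control (adjusted p = 0.972). Without control 1 these differences were 0.02 and -0.17, and without control 2 they were 0.53 and 0.34.

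The second Abcc9 probe set (1435751_at) was the steadiest of the members tested, at 295 and 312 in R899X high RVSP, 287 and 261 in R899X normal RVSP, and 262 and 283 in controls. Both R899X high RVSP mice lay above the other 4, by 0.15 ± 0.20 against control (adjusted p = 0.946). The third (1420408_a_at) read 177 and 138 in R899X high RVSP, 169 and 154 in R899X normal RVSP, and 73.8 and 144 in controls. Its difference of 0.55 ± 0.28 for all R899X against control had the smallest adjusted p of the members in that comparison (adjusted p = 0.834), and control 1 alone stood low. All 3 Abcc9 probe sets read higher in R899X high RVSP and in R899X normal RVSP than in controls, by 0.09 to 0.53 and by 0.01 to 0.57. Kcnj8, its neighbour and partner, read slightly lower in both, by -0.04 and -0.12. Neither gene's difference from control exceeded its error by enough to pass the test.

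Abcc8 encodes SUR1, the regulatory subunit best known from pancreatic beta cells and neurons. Its brighter probe set (1455765_a_at) read 118 and 66.0 in R899X high RVSP, 97.3 and 73.6 in R899X normal RVSP, and 87.7 and 81.8 in controls. The R899X high RVSP mice held both extremes, and the difference from control was 0.06 ± 0.33 (adjusted p = 0.992). The other probe set did not exceed 25.1 on any array. Of the 9 neuroendocrine and neuronal markers, only Syp and Uchl1 had a probe set above the filter, with summed intensities of 340 and 326 in R899X high RVSP, 408 and 308 in R899X normal RVSP, and 280 and 415 in controls.

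Trpc1 encodes a cation channel subunit linked to store-operated and receptor-operated calcium entry. Its brighter probe set (1421096_at) read 776 and 693 in R899X high RVSP, 736 and 702 in R899X normal RVSP, and 676 and 940 in controls. The controls again held both extremes, and the difference was -0.12 ± 0.20 for R899X high RVSP against control (adjusted p = 0.958). The dimmer one (1421095_a_at) read 176 and 218 in R899X high RVSP, 107 and 129 in R899X normal RVSP, and 104 and 151 in controls. Here both R899X high RVSP mice lay above the other 4. The difference was 0.67 ± 0.28 against R899X normal RVSP (limma, adjusted p = 1) and 0.58 ± 0.28 against control (adjusted p = 0.857).

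The 2 Trpc1 probe sets share a design sequence in the probe table, and their differences between R899X high and normal RVSP were 0.03 and 0.67. No other tested member had a 95% interval that left out 0 in any comparison. For this one it ran from 0.03 to 1.31 before any adjustment for the number of probe sets.

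Trpc6 encodes a channel opened by diacylglycerol after receptor activation, and is also 1 of the 8 genes in the pericyte marker list. It read 327 and 398 in R899X high RVSP, 444 and 378 in R899X normal RVSP, and 384 and 359 in controls. The difference was -0.18 ± 0.20 for R899X high RVSP against R899X normal RVSP (adjusted p = 1), and the 6 mice spanned 0.425 on the log2 scale.

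Cacna1c encodes Cav1.2, the pore of the L-type calcium channel through which depolarisation triggers contraction in smooth and cardiac muscle. Its brighter probe set (1421297_a_at) read 321 and 250 in R899X high RVSP, 351 and 252 in R899X normal RVSP, and 317 and 287 in controls. The groups overlapped, and the difference was -0.09 ± 0.24 for R899X high RVSP against control (adjusted p = 0.975). The other (1435730_at) read 204 and 142 in R899X high RVSP, 278 and 195 in R899X normal RVSP, and 148 and 250 in controls. It differed by -0.42 ± 0.32 between R899X high and normal RVSP (adjusted p = 1). R899X normal RVSP 1 read highest on both probe sets and R899X high RVSP 2 lowest, the order that these mice also had for cardiac muscle markers, at 0.46 and -0.84. The part of cardiac muscle in the Cacna1c values was not tested.

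**Figure D3:**
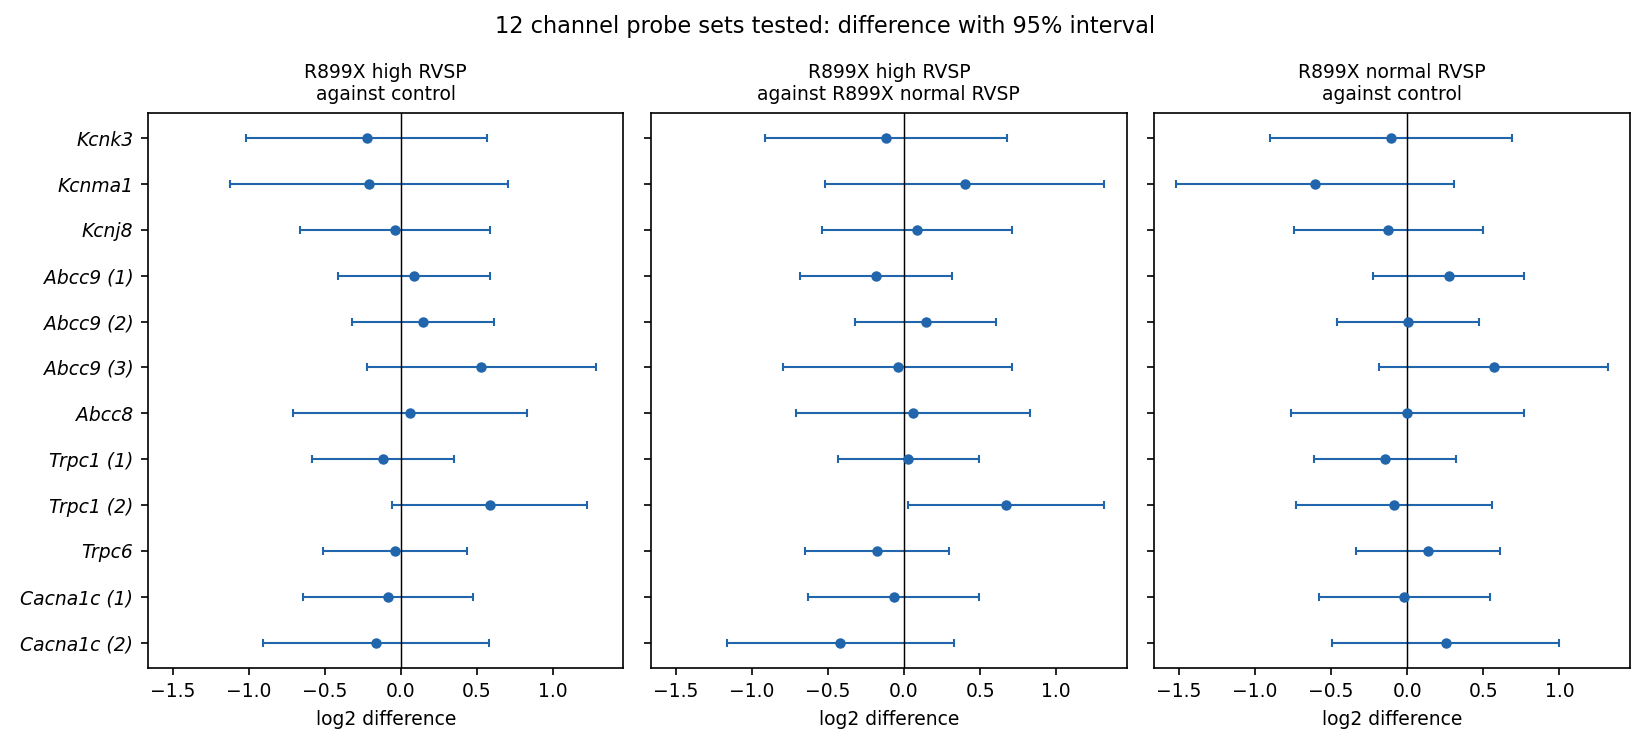
Log2 difference (x axis) of the 12 member probe sets tested, with its 95% interval from limma, in R899X high RVSP against control, R899X high RVSP against R899X normal RVSP and R899X normal RVSP against control. Numbers in brackets order the probe sets of a gene from bright to dim. The interval of the dimmer Trpc1 probe set in the middle panel, 0.03 to 1.31, is the single one that leaves out 0.

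Of the tested members, 2 of 12 (16.7%) had R899X high RVSP and control mice that did not overlap, against 37.3% of all probe sets tested. The corresponding counts were 2 of 12 for R899X normal RVSP against control (29.5% of all), 2 of 12 for R899X high RVSP against R899X normal RVSP (32.2% of all) and 0 of 12 for all R899X against control (15.2% of all). No count exceeded its background. The share of all probe sets with both R899X high RVSP mice above or below all other mice was not counted. The median gap between the 2 mice of a group was 0.32 for the members and 0.27 for all probe sets tested, and the median range over 6 mice was 0.67 and 0.61. Control 1 read below control 2 on 8 of the 12 probe sets, against 47.6% of all tested. For smooth muscle markers the mean deviation was -0.24 in control 1 and 0.13 in control 2, and for pericyte markers it was -0.22 and 0.11. Control 1 was also the lower for ciliated cell (-0.64 and 0.126), endothelium (-0.201 and 0.087) and neuroendocrine and neuronal markers (-0.215 and 0.269). It was the higher for alveolar epithelium (0.198 and -0.181), leukocyte (-0.037 and -0.367) and cardiac muscle markers (0.203 and 0.155). The part of any of these cell types in the control gap was not tested.

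Partner subunits of the members gave 9 measured genes out of 15 listed, and 0 passed in any comparison. Kcnj11, the pore Kir6.2 that joins SUR1 or SUR2, read 431 and 340 in R899X high RVSP, 382 and 349 in R899X normal RVSP, and 337 and 267 in controls. All 4 R899X mice lay above both controls, as did those of 7.52% of all probe sets tested, with a difference of 0.30 ± 0.19 (adjusted p = 0.859). Cacnb2, a beta subunit of L-type channels, read 276 and 252 in R899X high RVSP, 199 and 262 in R899X normal RVSP, and 200 and 169 in controls. It differed by 0.48 ± 0.24 between R899X high RVSP and control (adjusted p = 0.857). Kcnmb2, a beta subunit of the Kcnma1 channel, stood at 0.52 ± 0.31 in the same comparison (adjusted p = 0.872). The alpha2delta subunit gene Cacna2d1 read 631 and 724 in R899X high RVSP, 622 and 551 in R899X normal RVSP, and 626 and 1018 in controls. Between R899X normal RVSP and control it differed by -0.44 ± 0.24 (adjusted p = 0.987).

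Of 25 other potassium channel genes of the vessel wall, 12 were measured and 0 passed in any comparison. Their median difference was 0.04 for R899X high RVSP against control and 0.09 for R899X normal RVSP against control, beside -0.02 and 0.02 for all genes. Kcnk2, the mechanosensitive background channel TREK-1, had the smallest p of them in both, at 0.31 ± 0.24 (adjusted p = 0.893) and 0.38 ± 0.24 (adjusted p = 0.987). Kcnd3, a transient outward channel, read 186 and 194 in R899X high RVSP, 163 and 124 in R899X normal RVSP, and 199 and 173 in controls. Its difference between R899X high and normal RVSP was 0.38 ± 0.24 (adjusted p = 1).

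Of 15 other TRP and store-operated entry genes 10 were measured, again with 0 past the threshold in any comparison. Orai1, the pore of the store-operated channel, read 1347 and 1268 in R899X high RVSP, 802 and 1259 in R899X normal RVSP, and 928 and 1140 in controls. The difference was 0.34 ± 0.23 for R899X high RVSP against control (adjusted p = 0.884). Stim1, the calcium sensor that opens it, stood at -0.24 ± 0.18 for R899X high RVSP against R899X normal RVSP (adjusted p = 1) and 0.34 ± 0.18 for R899X normal RVSP against control (adjusted p = 0.987). Trpc2 had the smallest p of this list in R899X high RVSP against control, at -0.40 ± 0.24 (limma, adjusted p = 0.872). In that comparison 5 of the 10 genes read higher and 5 lower. Of 8 other calcium and chloride channel genes 4 were measured and 0 passed. Cacna1d, the related L-type pore Cav1.3, had the smallest p of them, at -0.45 ± 0.23 for R899X normal RVSP against control (adjusted p = 0.987).

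Genes of calcium release, pumps and exchange had the channel lists' largest median differences in R899X high RVSP. Of 13 listed, 11 were measured and 0 passed in any comparison, but 9 of 11 read lower in R899X high RVSP than in controls, with a median of -0.51, and 8 of 11 read lower than in R899X normal RVSP, with a median of -0.39. Over all genes the medians were -0.02 and -0.03. Atp2a2, the SERCA2 pump of heart and smooth muscle, read 5642 and 4094 in R899X high RVSP, 8651 and 6210 in R899X normal RVSP, and 7363 and 6599 in controls. Both R899X high RVSP mice lay below the other 4, by -0.54 ± 0.22 against control (adjusted p = 0.857) and -0.61 ± 0.22 against R899X normal RVSP (adjusted p = 1). Of all probe sets tested, 37.3% had R899X high RVSP and control mice that did not overlap. For R899X high and normal RVSP mice the share was 32.2%. The share with both separations at once, as for Atp2a2, was not counted. Ryr2, the cardiac ryanodine receptor, read 224 and 140 in R899X high RVSP, 414 and 221 in R899X normal RVSP, and 328 and 332 in controls, a difference from control of -0.84 ± 0.33 (adjusted p = 0.857). Itpr2, an inositol trisphosphate receptor, stood at -0.63 ± 0.26 against control (adjusted p = 0.857), and Casq2, cardiac calsequestrin, at -0.72 ± 0.28 against R899X normal RVSP (adjusted p = 1).

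Cardiac muscle markers also read lower. All 14 measured of 15 listed read lower in R899X high RVSP than in controls, with a median of -0.71, and lower than in R899X normal RVSP, with a median of -0.74. Their summed intensity was 27252 and 14690 in R899X high RVSP, 38696 and 29645 in R899X normal RVSP, and 32230 and 30417 in controls, and none was at 0, the lowest value being 140 for Ryr2, which is also in the calcium release list. The part of cardiac muscle in the calcium release values was not tested. Smooth muscle markers had medians of -0.03 and -0.24 in these comparisons, and pericyte markers 0.03 and -0.16.

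**Figure D4:**
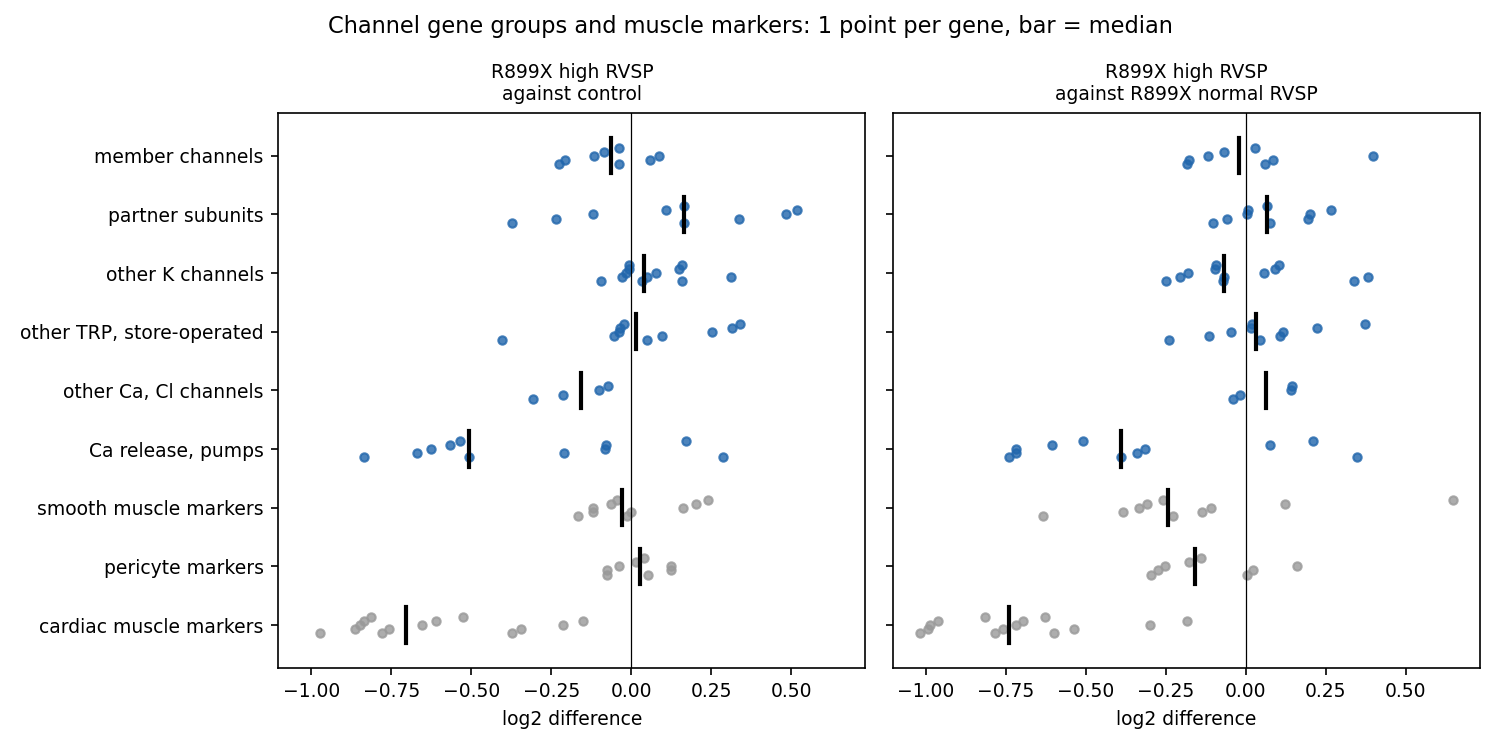
Log2 difference (x axis) of each measured gene, by its brightest probe set, in the member list, 5 lists of related channel and calcium genes (blue) and 3 lists of muscle and pericyte markers (grey), for R899X high RVSP against control and against R899X normal RVSP. Black bars are medians. The member channels centre near 0 (-0.06 and -0.02), while the calcium release genes (-0.51 and -0.39) and the cardiac markers (-0.71 and -0.74) lie to the left.

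For each member, the genes whose levels were most like it over the 6 arrays were looked up among 12087 genes. The closest to Kcnk3 was Pias3 (Pearson r = 0.996), to Cacna1c Ern1 (r = 0.997), to Kcnj8 Meaf6 (r = 0.992) and to Trpc6 Rit1 (r = 0.989). For Trpc1 it was Ikzf4 (r = 0.987), for Kcnma1 Icam1 (r = 0.987), for Abcc9 Lrrc51 (r = 0.985) and for Abcc8 Ksr1 (r = 0.966). Over all genes the median of the closest r was 0.992, so values of this size are usual across so few arrays. The points are the same 6 libraries for every gene.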

How the data were processed

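RNA of the lung, flushed with PBS after heparin injection, was hybridised to 1 array per mouse, per the labels. The authors deposited intensities, 1 per probe set and array, whose mean after trimming 2% at each end was 500.0 on every array. They come from an algorithm not given in the sources used here. Array medians of log2(intensity + 16) spanned 0.127, and no further normalization was applied. Depth has no counterpart on arrays: the number of arrays limits the precision.

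With R 4.3.3 and limma 3.58.1, a model with a mean for each group took in all 6 arrays (3 residual and 5.06 prior degrees of freedom, intensity trend), two-sided, with 4 contrasts over 27022 probe sets. The labels name no batch or pairing. An exact permutation test cannot go below p = 0.333 with 2 against 2 arrays or 0.0667 with 4 against 2, so none was used. The fit was tested on simulated data with changes larger than those of the tested members. That check does not show how often changes of the members' size would be missed. Probe sets were named by the platform annotation, and the gene identifiers of all 9 members matched RefSeq. The brightest probe set stood for a gene. Of each list of related genes up to 4 with the smallest p per comparison could be named, and 3 lookalike genes per member. The 6 channel lists, the 8 marker lists and the members were chosen with earlier results of these data known. Pseudocount, filter, quantile normalization, moderation, arrays in the fit, probe set rule and single arrays were varied. Of the marker lists not described above, endothelium (8 of 8 measured), ciliated cell (6 of 6), alveolar epithelium (5 of 6) and leukocyte markers (5 of 5) had median log2 differences of -0.04, 0.30, -0.07 and 0.33 for R899X high RVSP against control, with 0 members past the threshold.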

Additional observations from a re-analysis of the deposited data

How the results depend on the processing

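No member probe set passed the threshold under any of the settings run, and with single arrays left out the smallest adjusted p of a member was 0.32. The counts over all probe sets, 0 in each comparison, became 1 for R899X high RVSP against control when only the arrays compared were fitted. Without control 1 and R899X normal RVSP 1 together they were 313 for R899X high RVSP against control, 131 for R899X normal RVSP against control, 56 for R899X high RVSP against R899X normal RVSP and 228 for all R899X against control. With single arrays left out they lay between 0 and 2, 0 and 4, 0 and 43 (43 without R899X normal RVSP 2), and 0 and 6 (6 without control 2), in the same order of comparisons. Each fit with arrays left out holds at least 1 group of a single array, which is assumed to vary like the other groups. Leaving out 1 array leaves 2 residual degrees of freedom. Leaving out both leaves 1, from the R899X high RVSP pair, with control and R899X normal RVSP at 1 array each, so those counts are no evidence of changed genes. The causes were not tested.

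Several member differences, none of which passed, changed sign. Without control 1 and R899X normal RVSP 1 together, Abcc9 stood at -0.169 and Trpc6 at 0.007 for R899X high RVSP against control. Kcnj8 stood at 0.206, Abcc9 at -0.077 and Abcc8 at -0.126 for R899X normal RVSP against control. Kcnma1 stood at -0.025, Kcnj8 at -0.226 and Cacna1c at 0.158 for R899X high RVSP against R899X normal RVSP, and Kcnj8 at 0.093, Abcc9 at -0.123 and Abcc8 at -0.012 for all R899X against control. With the mean of a gene's probe sets, Trpc1 stood at 0.232 for R899X high RVSP and at 0.058 for all R899X against control, and Cacna1c at 0.118 for R899X normal RVSP against control. Abcc8 stood at -0.001 for R899X normal RVSP against control with a pseudocount of 1, and at -0.029 for R899X high RVSP against R899X normal RVSP with quantile normalization.

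With single arrays left out, these differences changed sign. For R899X high RVSP against control, Kcnk3 lay between -0.775 and 0.325, Kcnma1 between -0.597 and 0.181, Kcnj8 between -0.161 and 0.083 and Abcc9 between -0.169 and 0.345. Abcc8 lay between -0.296 and 0.415, Trpc1 between -0.351 and 0.115, Trpc6 between -0.176 and 0.096 and Cacna1c between -0.257 and 0.086. For R899X normal RVSP against control, Kcnk3 lay between -0.657 and 0.443, Kcnj8 between -0.434 and 0.187 and Abcc8 between -0.169 and 0.171. Trpc1 lay between -0.379 and 0.087 and Cacna1c between -0.244 and 0.208. For R899X high RVSP against R899X normal RVSP, Kcnk3 lay between -0.266 and 0.029, Kcnma1 between -0.025 and 0.821 and Kcnj8 between -0.226 and 0.394. Abcc8 lay between -0.297 and 0.414, Trpc1 between -0.051 and 0.108 and Cacna1c between -0.294 and 0.158. For all R899X against control, Kcnk3 lay between -0.716 and 0.384, Kcnj8 between -0.236 and 0.074, Abcc9 between -0.077 and 0.437 and Abcc8 between -0.148 and 0.208. Trpc1 lay between -0.365 and 0.101, Trpc6 between -0.019 and 0.116 and Cacna1c between -0.165 and 0.061.

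No paired analysis was possible because the labels give no replicate number or pairing across groups. With the lower 60% left out as dim, members below that line gave no value. With 2 mice per group, the 95% intervals of 8 to 10 of the 12 member probe sets tested lay within 2-fold of no difference, by comparison, and those of the others reached past it. With single arrays left out, Kcnma1 lay between -1.029 and -0.182 and Abcc9 between 0.015 and 0.529 for R899X normal RVSP against control, without a change of sign.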
